A study of Mus musculus with 36 samples.

Results

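The genes examined were 9 long noncoding RNAs (lncRNAs) that are retained in the nucleus or transcribed from imprinted domains: *Malat1*, *Neat1*, *H19*, *Meg3*, *Rian*, *Mirg*, *Kcnq1ot1*, *Miat* and *Pvt1*. They were found by gene name in a count table of 55416 genes, of which 9950 were labelled lncRNA, and all 9 were present. Of these, 6 passed the filter on low counts, a level of 1 RPM (reads scaled to library size) or more in 12 of the 36 libraries. *Meg3*, *Rian* and *Mirg* fell under it. *Tug1*, the lncRNA targeted in these cells, was the reference gene.

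All libraries came from C2C12 cells, a single mouse myoblast line, differentiated into myotubes. On day 3 of differentiation every well received an antisense locked nucleic acid (LNA) directed at *Tug1* (*Tug1* KD) or a control LNA (control), and the cells were harvested on day 4. With either LNA the wells were kept without stimulation (Rest) or were given EPS (electrical pulses, an in vitro model of exercise) for 3 h at 13 V and 66 Hz, and were lysed at its end (EPS 0h) or 3 h later (EPS 3h). This gave 6 groups of 6 libraries. Each library was 1 well. The study describes independent experiments on the same line, each with 3 wells per group. Fits without a block took the 6 wells of a group as independent, so n = 6 counts wells and not experiments. Their p values do not separate the spread between wells from that between experiments. The labels do not tie replicate numbers to the experiments, and replicates 1 to 3 and 4 to 6, which part in the data, were used as sets.

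*Malat1* and *Neat1* are neighbouring, abundant nuclear RNAs. *Malat1* is concentrated in nuclear speckles, where splicing factors are stored, and *Neat1* is the RNA scaffold on which paraspeckles assemble. Imprinted genes are expressed from the allele of a single parent. *H19* is expressed from the maternal copy of the *H19*-*Igf2* domain, and *Meg3*, *Rian* and *Mirg* from the maternal copy of the *Dlk1*-*Dio3* domain, where they host small RNAs. *Kcnq1ot1* is expressed from the paternal copy of the *Kcnq1* domain, where it silences neighbouring genes in cis. *Miat* is a nuclear RNA that binds splicing factors, and *Pvt1* lies next to the proto-oncogene *Myc*.

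The positions in GRCm39 show how the genes group. *Malat1* (chr19:5845717-5853602, minus strand, 1 exon) and *Neat1* (chr19:5874736-5897132, minus strand, 1 merged exon) are 21.1 kb apart. *H19* (chr7:142129262-142133957, minus strand) and *Kcnq1ot1* (chr7:142731402-142850327, minus strand) are separated by 597.0 kb, and *Kcnq1ot1* lies antisense within *Kcnq1*. *Meg3* (chr12:109506877-109538165), *Rian* (chr12:109570242-109628150) and *Mirg* (chr12:109696198-109715898) follow each other on the plus strand. *Miat* lies at chr5:112361094-112377261 on the minus strand, *Pvt1* at chr15:61888639-62249945 on the plus strand, and *Tug1* at chr11:3589785-3599673 on the minus strand, where the annotation used here labels it protein coding.

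Several members host small RNAs. In the GENCODE annotation *H19* carries 1 microRNA in an exon, *Meg3* carries 2, *Mirg* carries 14, and *Rian* carries 4 together with 13 small nucleolar RNAs. The rows of these small RNAs in the count table held 0 counts in total. The mature products of the *H19* microRNA are shown because *H19* is the most abundant member, and the seed (bases 2 to 8) is in capitals (RefSeq, GRCm38.p6, chr7:142577112-142577133 and chr7:142577078-142577099, minus strand).
miR-675-5p: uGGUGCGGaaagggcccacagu
miR-675-3p: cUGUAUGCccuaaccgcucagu

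Promoter windows of 300 bases, 250 before and 50 after the annotated start (RefSeq, GRCm38.p6), were matched for 7 of the 10 genes, without *Neat1*, *H19* and *Pvt1*. *Kcnq1ot1* and *Miat* are shown because both rose at EPS 0h, and their capitals mark CpG dinucleotides. The *Kcnq1ot1* window (chr7:143296498-143296797, minus strand) holds 9 CpGs and the *Miat* window (chr5:112228899-112229198, minus strand) holds 25, against a median of 7 over 32851 windows. As many were found in 45.8% and 18.4% of all windows.
*Kcnq1ot1*: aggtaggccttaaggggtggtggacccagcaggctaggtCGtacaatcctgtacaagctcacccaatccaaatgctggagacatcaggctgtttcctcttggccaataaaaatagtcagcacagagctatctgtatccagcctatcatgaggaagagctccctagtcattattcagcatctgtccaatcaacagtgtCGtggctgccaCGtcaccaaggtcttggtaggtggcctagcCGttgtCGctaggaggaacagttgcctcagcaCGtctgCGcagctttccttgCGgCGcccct
*Miat*: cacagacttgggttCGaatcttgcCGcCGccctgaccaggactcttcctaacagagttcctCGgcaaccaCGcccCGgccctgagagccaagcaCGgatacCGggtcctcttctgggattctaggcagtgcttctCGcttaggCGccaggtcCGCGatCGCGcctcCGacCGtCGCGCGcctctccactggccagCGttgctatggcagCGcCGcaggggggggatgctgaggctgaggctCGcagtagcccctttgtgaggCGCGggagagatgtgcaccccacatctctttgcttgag

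The first *Meg3* window (chr12:109540746-109541045, plus strand) is shown because *Meg3* was almost absent from these libraries. Its capitals mark the letters TGACGTCA, the cAMP response element, which start at position -57 from the annotated start.
*Meg3*: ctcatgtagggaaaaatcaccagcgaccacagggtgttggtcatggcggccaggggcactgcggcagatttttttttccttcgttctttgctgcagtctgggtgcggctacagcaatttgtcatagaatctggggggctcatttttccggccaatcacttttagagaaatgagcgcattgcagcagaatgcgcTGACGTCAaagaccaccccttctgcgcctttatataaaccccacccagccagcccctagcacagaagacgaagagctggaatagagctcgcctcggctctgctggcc

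Letter matches were sought on both strands of these windows for TGACGTCA, TGANTCA (AP-1), GAANNTTC and TTCNNGAA (both heat shock factor), CAGCTG (an E-box) and GCGNGGGCG (EGR). They occur in 1.79%, 7.81%, 7.86%, 8.52%, 16.3% and 5.55% of all windows. Besides *Meg3*, *Rian* held 1 GAANNTTC and *Malat1* held 1 CAGCTG. No match was found in the windows of *Kcnq1ot1*, *Miat*, *Mirg* and *Tug1*.

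Library totals lay between 17005079 and 24181167 counts. The summed level of 15 myotube markers was 13242 to 19118 RPM, against 106.3 to 190.8 RPM for 5 markers of myoblasts and cycling cells. The sum of 4 fibroblast markers was 1296 to 2907 RPM, nearly all of it *Col3a1*, and *Dpt* and *Lum* reached at most 1.93 and 2.18 RPM. The 4 endothelial and blood markers summed to 0.423 to 22.2 RPM, the highest value being set by *Hbb-bs* in a single EPS 3h control library.

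**Figure D1:**
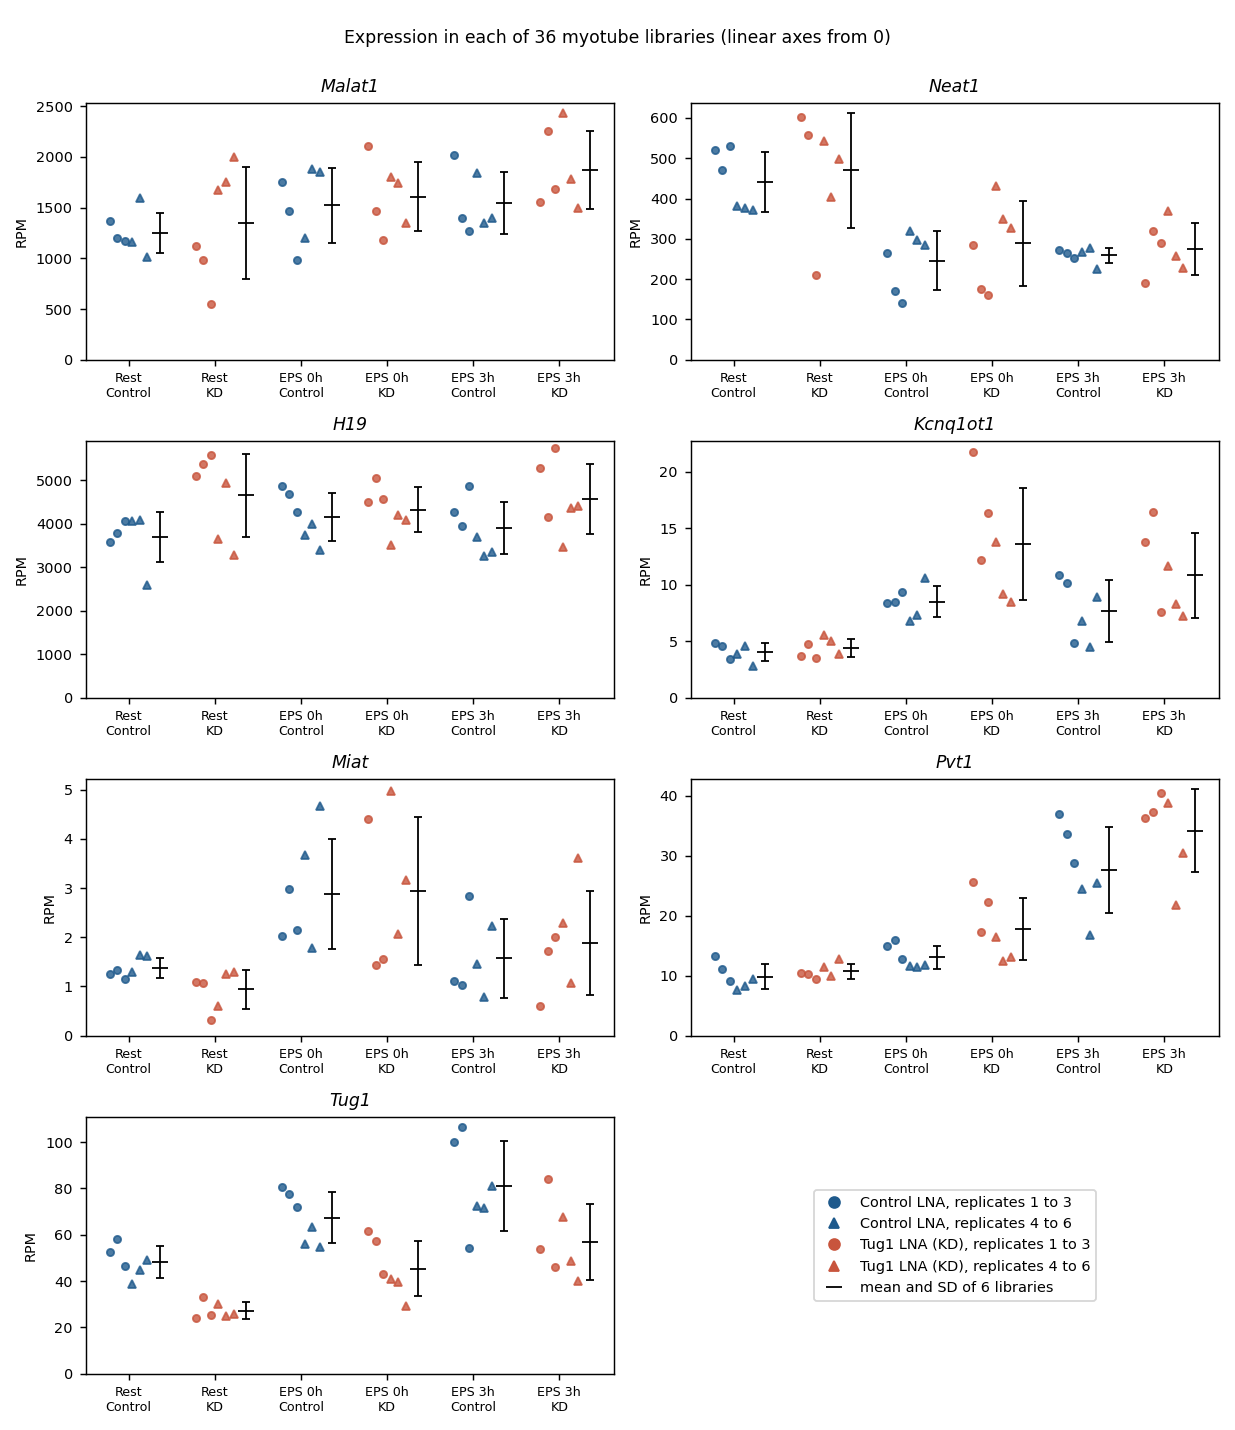
Level of 6 members and *Tug1* in each of the 36 libraries (y axis, RPM from 0), by group. Circles are replicates 1 to 3 and triangles replicates 4 to 6, in control (blue) and *Tug1* KD (red) myotubes, and bars give the mean and SD of 6 libraries. The mean of *Neat1* is highest at Rest, that of *Pvt1* at EPS 3h, and that of *Kcnq1ot1* is lowest at Rest.

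Compared per kb of merged exons in the Rest control group (mean ± SD, n = 6), *H19* was the most abundant member at 1298 ± 202 RPM per kb. *Malat1* followed at 159 ± 25.3 and *Neat1* at 19.7 ± 3.33 RPM per kb, ahead of *Tug1* at 4.96 ± 0.694 RPM per kb. *Pvt1* (0.448 ± 0.0957), *Miat* (0.131 ± 0.0190) and *Kcnq1ot1* (0.0428 ± 0.00839 RPM per kb) were far lower, and each gene in this order was separated from the next by more than the SDs. Poly-A selection was used, and the mature end of *Malat1* and the long form of *Neat1* carry no poly-A tail, so levels of these RNAs are those of the molecules that were captured. *Neat1* was divided by its whole merged exon of 22.4 kb, which includes the long form. Its level per kb, its distance from *Malat1* and its place in this order depend on that length.

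*Tug1* was lower with its LNA in every condition. At Rest its lowest, median and highest values were 38.6, 47.7 and 58.2 RPM with the control LNA and 23.9, 25.4 and 33.3 RPM with the *Tug1* LNA, without overlap. The log2 fold change (log2FC, edgeR) at Rest was -0.83 (SE 0.171, false discovery rate, FDR, = 0.000915). The values were -0.57 (FDR = 0.0178) directly after EPS and -0.51 (FDR = 0.0414) after recovery, where the libraries overlapped. The *Tug1* KD and control means were 45.4 and 67.3 RPM at EPS 0h. At EPS 3h they were 56.8 and 81.0 RPM, both above the Rest control mean of 48.3 RPM. Replicates 1 to 3 alone did not pass at EPS 0h (-0.49, FDR = 0.266) or EPS 3h (-0.50, FDR = 0.227). Replicates 4 to 6 passed at both (-0.66, FDR = 0.00657, and -0.53, FDR = 0.0358). After EPS *Tug1* was higher in control myotubes, by 0.48 (FDR = 0.0223) at EPS 0h and 0.75 (FDR = 0.000329) at EPS 3h. In *Tug1* KD myotubes it was higher by 0.74 (FDR = 0.000622) and 1.06 (FDR = 2.69e-06). The rise at EPS 0h in control myotubes passed in neither set (0.54, FDR = 0.0697, and 0.39, FDR = 0.0650), whereas the other rises passed in each set. *Morc2a* overlaps *Tug1* on the other strand, and the strand setting of the counting is not given in the sources used here.

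The first question was whether lowering *Tug1* changed the other lncRNAs. At Rest edgeR called 0 of 6 members at an FDR under 0.05, while 5.54% of all 13995 genes were called higher and 4.47% lower. DESeq2 and limma-voom also called 0, and in each of the 3 tools 1 member had an unadjusted p under 0.05. At EPS 0h 1 of 6 members was higher (*Kcnq1ot1*) and 0 were lower, against 8.25% and 6.07% of all genes. At EPS 3h all 3 tools called 0, with 1 member under an unadjusted p of 0.05 in each, against 6.38% and 5.11% by edgeR.

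The second question was how the members responded to EPS. At EPS 0h 2 of 6 were higher (*Kcnq1ot1* and *Miat*) and 1 was lower (*Neat1*) in control myotubes, where 20.5% of all genes were called higher and 18.4% lower. At EPS 3h 2 were higher (*Kcnq1ot1* and *Pvt1*) and 1 was lower (*Neat1*), against 26.1% and 25.9%. With *Tug1* KD, 3 members (*Kcnq1ot1*, *Miat* and *Pvt1*) were higher and *Neat1* was lower at both times, against 24.4% and 21.2% of all genes at the first time and 26.2% and 25.9% at the second. At EPS 3h limma-voom did not call *Miat* there (FDR = 0.0741). Of the 824 lncRNAs tested, 28.2%, 38.3%, 34.3% and 39.9% were called higher in these 4 comparisons. Both times were compared with the same Rest libraries, so their values are not independent. A single Rest group per LNA served both harvest times, so EPS and time since transfection cannot be fully told apart. In bulk RNA fewer cells with a transcript and less of it per cell cannot be told apart.

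**Figure D2:**
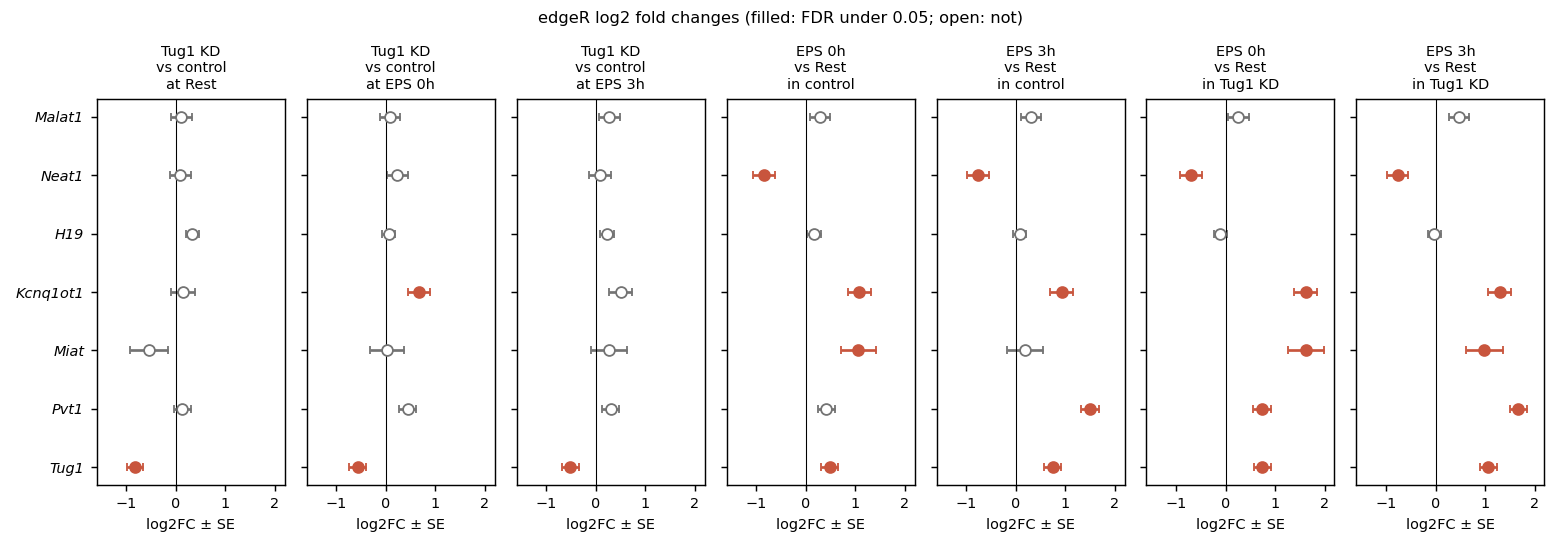
Fold changes of 6 members and *Tug1* in 7 comparisons (x axis, log2FC with its SE, edgeR, 6 libraries per group). Filled points passed an FDR of 0.05 and open points did not. *Neat1* lies left of 0 and *Kcnq1ot1* right of 0 with filled points in all 4 EPS comparisons, and *Malat1* and *H19* have open points only.

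*Neat1*, as captured by poly-A selection, fell after stimulation. These values do not give the level of its long form, which carries no poly-A tail. In control myotubes its lowest, median and highest values were 371, 425 and 529.7 RPM at Rest. They were 141, 275 and 319 RPM at EPS 0h and 225, 266 and 277 RPM at EPS 3h. At both times all 6 stimulated libraries lay under every Rest library. The log2FC was -0.84 (SE 0.220, FDR = 0.00245) and -0.76 (SE 0.220, FDR = 0.00377), and the means were 0.557 and 0.588 of that at Rest.

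*Neat1* fell with *Tug1* KD as well. The lowest, median and highest values were 211, 521 and 603 RPM at Rest, 161, 306 and 431 RPM at EPS 0h and 191, 273 and 369.6 RPM at EPS 3h. The groups overlapped, with Rest replicate 3 as the lowest Rest library, and all 6 stimulated libraries lay under the Rest mean at each time. The log2FC was -0.70 (SE 0.220, FDR = 0.00903) and -0.77 (SE 0.220, FDR = 0.00362), and without that library it was -0.85 and -0.92.

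The early fall of *Neat1* was larger in replicates 1 to 3. In control myotubes the log2FC at EPS 0h was -1.41 in replicates 1 to 3 (FDR = 0.00202), whereas replicates 4 to 6 gave -0.32 (FDR = 0.116). With *Tug1* KD the sets gave -1.13 (FDR = 0.00568) and -0.38 (FDR = 0.0639). At EPS 3h both sets passed, at -0.93 and -0.55 in control and -0.76 and -0.76 in *Tug1* KD myotubes. *Frmd8os*, antisense to *Neat1*, held 674 counts over all libraries against 238788 for *Neat1*.

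*Malat1* was not called by edgeR in any comparison without a block over the 6 replicates. At Rest its lowest, median and highest values were 1018, 1185 and 1591 RPM in control and 552, 1399 and 2002 RPM in *Tug1* KD myotubes. Of the *Tug1* KD libraries, 3 lay above and 2 below every control library, and the log2FC was 0.11 (95% interval -0.31 to 0.53). The sets pointed in different directions, at -0.49 (FDR = 0.318) in replicates 1 to 3 and 0.53 (FDR = 0.0821) in replicates 4 to 6.

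With EPS the control values of *Malat1* were 982, 1609 and 1886 RPM directly afterwards and 1273, 1401 and 2016 RPM after recovery, overlapping with Rest. The log2FC was 0.28 (95% interval -0.14 to 0.71) and 0.31 (95% interval -0.11 to 0.73). In *Tug1* KD myotubes the values were 1181, 1607 and 2110.3 RPM and 1493, 1735 and 2437 RPM, and at EPS 3h all 6 libraries lay above the Rest mean. The log2FC there was 0.47 (SE 0.208, FDR = 0.0550), which DESeq2 (FDR = 0.0367) and limma-voom (FDR = 0.0233) called. By edgeR it passed with the replicate set as a block (0.51, FDR = 0.0252). Replicates 1 to 3 gave 1.07 (FDR = 0.00276) and the other set 0.08 (FDR = 0.798). Replicates 1 to 3 also passed at EPS 0h (0.86, FDR = 0.0120).

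The ratio of *Neat1* to *Malat1* within a library does not depend on library scaling. It covers only the molecules of each that poly-A selection captured. In control myotubes the mean log2 ratio was -1.51 ± 0.32 (SD, n = 6) at Rest, -2.66 ± 0.40 at EPS 0h and -2.56 ± 0.25 at EPS 3h. With *Tug1* KD it was -1.47 ± 0.54, -2.54 ± 0.45 and -2.77 ± 0.16. The differences from Rest were -1.15 and -1.05 in control (exact two-sided permutation tests, adjusted p = 0.0303 and 0.0227 over 21 tests) and -1.07 and -1.30 in *Tug1* KD myotubes (exact permutation tests, adjusted p = 0.0455 and 0.0227). Replicates 1 to 3 and 4 to 6 gave -1.59 and -0.71, -1.25 and -0.86, -1.91 and -0.22, and -1.76 and -0.83 in these 4 comparisons, lower after EPS in each set. Exact permutation within the sets gave adjusted p values of 0.0700, 0.0525, 0.105 and 0.0525, and its smallest possible unadjusted p was 0.005. *Tug1* KD changed the ratio by 0.03, 0.11 and -0.21 at Rest, EPS 0h and EPS 3h (exact permutation tests, adjusted p = 1.00, 0.876 and 0.255).

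**Figure D3:**
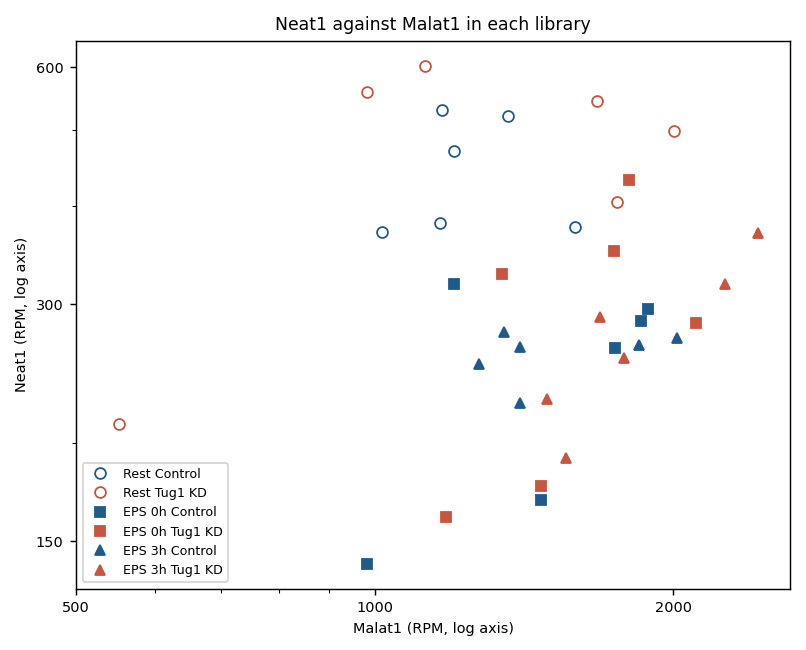
*Neat1* (y axis) against *Malat1* (x axis) in each of 36 libraries, in RPM on log axes, by condition and LNA. At a given level of *Malat1* the Rest libraries tend to lie above the stimulated ones, and Rest *Tug1* KD replicate 3 lies at the lowest *Malat1* value, 551.9 RPM.

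Among genes of paraspeckle and nuclear speckle proteins, some were higher and others lower after EPS. Of 17 paraspeckle genes, 4 were higher and 3 lower at EPS 0h, and 6 higher and 2 lower at EPS 3h in control myotubes, with medians of 0.04 and 0.07 against -0.03 and -0.02 over all genes. At EPS 3h *Matr3*, a nuclear matrix protein gene, rose by 1.14 (FDR = 7.71e-05), *Tardbp*, which encodes the RNA-binding protein TDP-43, by 0.84 (FDR = 1.33e-08) and the cleavage factor gene *Cpsf6* by 0.77 (FDR = 7.86e-08). With *Tug1* KD at Rest 2 of the 17 were higher, the chromatin remodeller gene *Smarca4* (0.35, FDR = 0.0234) and *Sfpq*, an essential paraspeckle protein gene (0.20, FDR = 0.0445), and 0 were lower. Among all genes 5.54% were higher and 4.47% lower in this comparison.

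Of 20 nuclear speckle genes, 2 were higher and 2 lower at EPS 0h, and 7 higher and 3 lower at EPS 3h in control myotubes (medians -0.01 and 0.17). Among all genes 20.5% were higher and 18.4% lower at the first time, and 26.1% and 25.9% at the second. The splicing factor genes *Sf3b1* (0.90, FDR = 5.76e-07) and *Srsf11* (0.69, FDR = 0.000310) rose and *Srsf5* fell (-0.61, FDR = 7.02e-06) after recovery. With *Tug1* KD at Rest 1 was higher (*U2af1*, 0.39, FDR = 0.00440) and 0 were lower, against 5.54% and 4.47% of all genes.

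Around *Malat1* and *Neat1*, 8 flanking genes were tested. In control myotubes 1 was higher and 4 were lower at EPS 0h, and 1 was higher and 5 were lower at EPS 3h (medians -0.42 and -0.40). The shares over all genes were 20.5% higher and 18.4% lower, then 26.1% and 25.9%. *Cdc42ep2*, an effector of the GTPase Cdc42, fell from 58.9 ± 5.51 to 13.4 ± 3.08 RPM (SD, n = 6, log2FC -2.13, FDR = 1.44e-15), and *Frmd8* also fell (-0.67, FDR = 0.00113). *Tigd3* was the gene that rose (0.99, FDR = 0.00142).

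*H19* stayed at a high level in all groups and was not called by edgeR in any comparison without a block over the 6 replicates. At Rest its lowest, median and highest values were 2595, 3928 and 4080.2 RPM in control and 3273, 5018 and 5586 RPM in *Tug1* KD myotubes. Of the *Tug1* KD libraries, 4 of 6 lay above every control library, and the log2FC was 0.33 (SE 0.136, FDR = 0.130). It was 0.49 in replicates 1 to 3 (FDR = 0.0163), while replicates 4 to 6 gave 0.14 (FDR = 0.587). With the replicate set as a block it passed (0.31, FDR = 0.0326).

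After EPS the lowest, median and highest values of *H19* were 3401, 4123 and 4863 RPM and, after recovery, 3257, 3822 and 4861 RPM in control myotubes. In *Tug1* KD myotubes they were 3503, 4356 and 5052 and 3475, 4380.3 and 5742 RPM. All of these overlapped with Rest, with log2FC values of 0.17 (95% interval -0.11 to 0.44) and 0.08 (-0.20 to 0.35) in control and -0.11 (-0.38 to 0.17) and -0.02 (-0.30 to 0.25) in *Tug1* KD myotubes.

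The row of the partner gene of *H19* held few counts. *Igf2*, which encodes a fetal growth factor and lies 70.5 kb away, had 9 counts over the Rest control libraries, where *H19* had 475056. *Ins2* of the same domain passed the filter on low counts. Whether reads of *Igf2* were counted in other rows or dropped was not tested. Of the 6 other genes of this domain and its flanks tested, *Syt8*, a synaptotagmin gene, was the one called in control myotubes, falling at EPS 0h (-0.71, FDR = 3.48e-05) and EPS 3h (-0.64, FDR = 7.22e-05). In *Tug1* KD myotubes at EPS 0h the fast troponin gene *Tnnt3* was lower too (-0.48, FDR = 0.0130). *Tug1* KD against control gave 0 calls among the 6 by edgeR in each condition.

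*Kcnq1ot1*, the antisense RNA of the *Kcnq1* domain, rose with EPS. In control myotubes its lowest, median and highest values were 2.80, 4.21 and 4.85 RPM at Rest, from 66 to 99 counts per library. They were 6.83, 8.42 and 10.6 RPM at EPS 0h, all above every Rest library, and 4.45, 7.82 and 10.9 RPM at EPS 3h, with 5 of 6 above every Rest library. The log2FC was 1.08 (SE 0.233, FDR = 0.000335) and 0.93 (SE 0.233, FDR = 0.00103).

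With *Tug1* KD the values of *Kcnq1ot1* were 3.54, 4.31 and 5.54 RPM at Rest, 8.45, 13.0 and 21.8 RPM at EPS 0h and 7.24, 9.98 and 16.5 RPM at EPS 3h, and no stimulated library overlapped with Rest. The log2FC was 1.62 (SE 0.232, FDR = 6.49e-07) and 1.30 (SE 0.232, FDR = 1.45e-05). In all 4 EPS comparisons *Kcnq1ot1* also passed within each set, with log2FC values from 0.84 to 2.07.

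Directly after EPS, *Kcnq1ot1* was higher in *Tug1* KD than in control myotubes by 0.68 (SE 0.223, FDR = 0.0363), with 4 of 6 libraries above every control library. Neither set alone passed, at 0.95 (FDR = 0.0523) and 0.34 (FDR = 0.399), and limma-voom did not call it (0.60, FDR = 0.0571). The differences at EPS 3h (0.50, FDR = 0.163) and Rest (0.14, FDR = 0.826) did not pass.

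The gene in which *Kcnq1ot1* lies had another pattern. *Kcnq1*, a potassium channel gene, was at 0.469 ± 0.228 RPM with the control LNA and 1.73 ± 0.321 RPM with the *Tug1* LNA at Rest (SD, n = 6, log2FC 1.88, FDR = 5.15e-05), where *Kcnq1ot1* was not called. It was also higher with *Tug1* KD at EPS 0h (1.59, FDR = 0.000330) and EPS 3h (1.37, FDR = 0.000501). EPS in control myotubes gave 0.20 (FDR = 0.678) at once and 1.77 (FDR = 1.40e-05) after recovery. *Kcnq1* held 1148 and *Kcnq1ot1* 5692 counts over all libraries, and without the strand of the counting reads from the shared span cannot be told apart.

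Of the 8 genes of the *Kcnq1* domain that were tested, 0 were higher and 3 lower at EPS 0h, and 2 higher and 3 lower at EPS 3h in control myotubes. Over all genes the shares were 20.5% higher and 18.4% lower, then 26.1% and 25.9%. The medians were -0.30 and -0.33 against -0.03 and -0.02 over all genes. *Cd81*, a tetraspanin gene, fell from 283 ± 21.0 to 174 ± 11.5 RPM after recovery (SD, n = 6, log2FC -0.70, FDR = 2.56e-10). *Tssc4* fell (-0.80, FDR = 0.00152) and the histone chaperone gene *Nap1l4* rose (0.50, FDR = 4.55e-07). *Cdkn1c*, the imprinted cell cycle inhibitor of the domain, had log2FC values of 0.66 (FDR = 0.139) and 0.09 (FDR = 0.854) at these times.

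**Figure D4:**
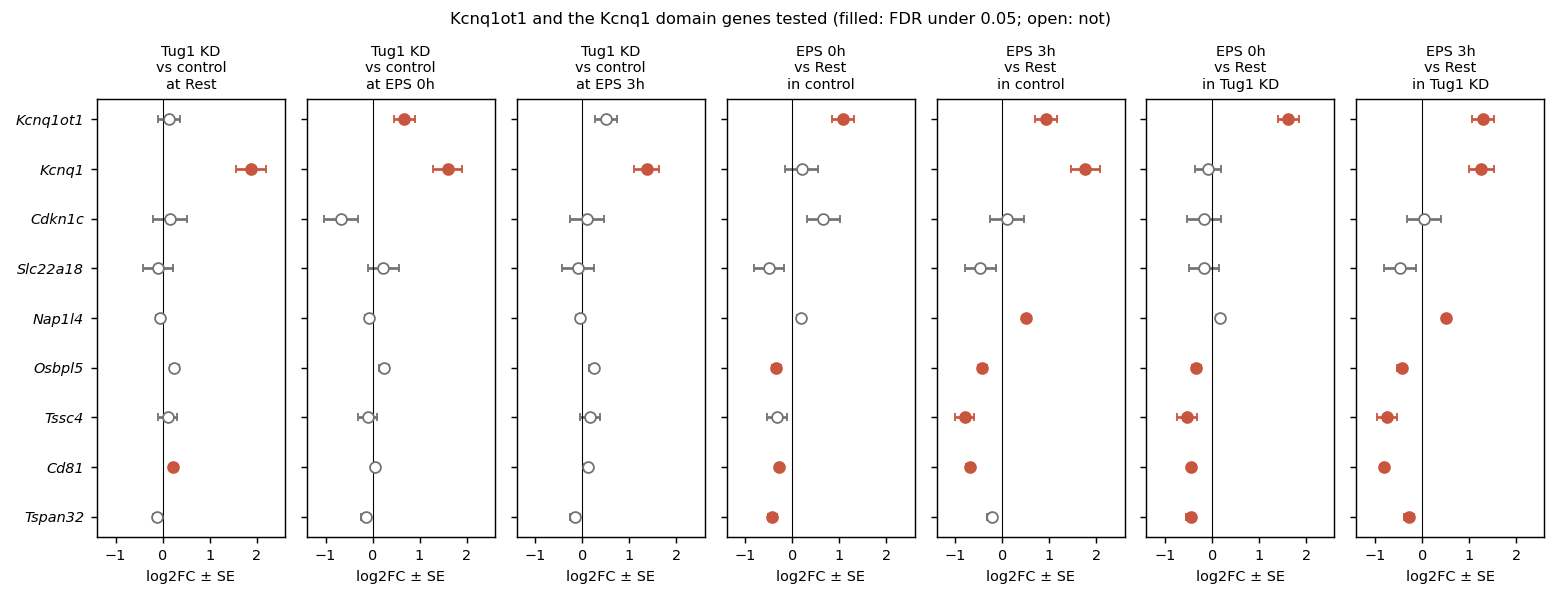
*Kcnq1ot1* and the 8 genes of its domain that passed the filter, in 7 comparisons (x axis, log2FC with its SE, edgeR, 6 libraries per group). Filled points passed an FDR of 0.05. *Kcnq1ot1* is filled in all 4 EPS comparisons and *Kcnq1* in the 3 comparisons of *Tug1* KD with control, and *Kcnq1* also at EPS 3h against Rest.

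The RNAs of the *Dlk1*-*Dio3* domain were at or near the limit of detection. *Meg3*, the first RNA of the maternal unit, had 1 count in Rest control replicate 2, 2 counts in Rest *Tug1* KD replicate 1 and 0 counts in the other 34 libraries. A total of 0 over the 6 libraries of a group allows a level of up to 0.0246 to 0.0264 RPM (3 counts, counting error only). *Rian* had 30 counts and *Mirg* 31 over all libraries, at most 6 in any of these.

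Both *Rian* and *Mirg* had most of their counts at EPS 3h. *Rian* held 1 count in each Rest group, 3 and 2 counts at EPS 0h, and 14 and 9 counts at EPS 3h in control and *Tug1* KD myotubes. *Mirg* held 0 counts in both Rest groups, 3 and 2 at EPS 0h, and 13 in each group at EPS 3h. Pooled over the libraries of a group, *Rian* at EPS 3h was 14.0 times its Rest level in control (95% counting interval 2.13 to 593.0) and 9.3 times in *Tug1* KD myotubes (1.29 to 408.0). *Mirg* was 4.34-fold and 4.48-fold above a floor of 3 counts over the Rest group. Folds over this floor leave out the counting error at EPS 3h and are not lower bounds. Single libraries set much of these values. Without EPS 3h *Tug1* KD replicate 1, which held 6 of the 9 counts, *Rian* was at 3.72 times its Rest level (0.299 to 195.0), and without replicate 4 *Mirg* was 2.86-fold above the floor with *Tug1* KD. Without the single Rest library that held a count of *Rian* (control replicate 4 or *Tug1* KD replicate 1), the values became 3.81-fold and 2.62-fold above the floor. At EPS 3h *Rian* and *Mirg* were each at 0 in 2 of 6 control and 3 of 6 *Tug1* KD libraries, so the groups overlapped with Rest. The ratios of *Rian* and *Mirg* to *Meg3* rest on the 0.5 counts added to each, and 0 of their 14 comparisons passed (exact permutation tests, lowest adjusted p = 0.167).

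Protein-coding genes of the same domain were looked at after these values were seen. *Dlk1*, which encodes a membrane protein of the Notch ligand family, had 1 count in each Rest group and 41 and 59 counts at EPS 3h in control and *Tug1* KD myotubes. This was 41.1 times (95% counting interval 6.97 to 1660.0) and 61.0 times (10.5 to 2450.0) the pooled Rest level. Without the Rest library that held the count (control replicate 4 and *Tug1* KD replicate 6), it was 11.1-fold and 16.6-fold above the same floor. *Rtl1*, antisense to *Rian*, had 0 counts at Rest and 18 and 10 counts at EPS 3h, and reads of *Rtl1* and *Rian* cannot be told apart without the strand. *Dio3* had at most 4 counts in any group. Of this list 2 genes passed the filter, *Wars* and *Wdr25*, and EPS in control myotubes gave 0 calls among these by edgeR.

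**Figure D5:**
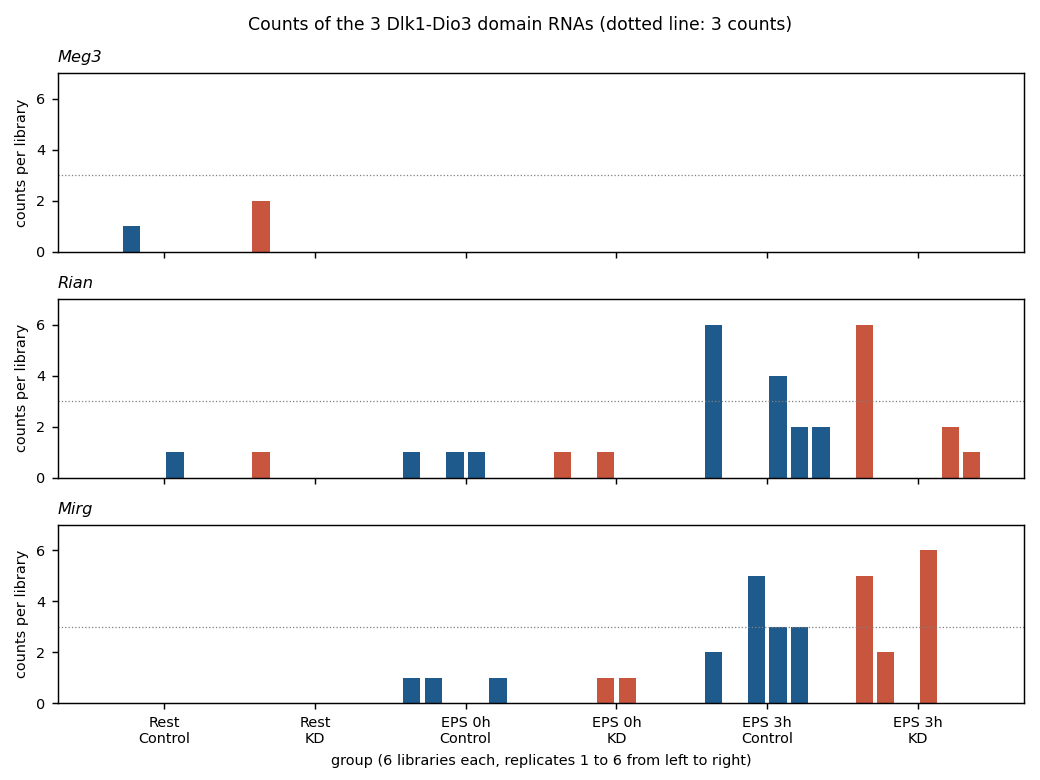
Counts of *Meg3*, *Rian* and *Mirg* in each of the 36 libraries (y axis, counts per library), by group, in control (blue) and *Tug1* KD (red) myotubes. The dotted line marks 3 counts. *Meg3* has counts in 2 Rest libraries, and every count of *Rian* or *Mirg* above 1 lies at EPS 3h.

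*Miat* was a rare transcript that rose directly after EPS. In control myotubes its lowest, median and highest values were 1.15, 1.31 and 1.64 RPM at Rest, from 23 to 38 counts per library. They were 1.78, 2.56 and 4.67 RPM at EPS 0h, all above every Rest library, with a log2FC of 1.06 (SE 0.353, FDR = 0.0163). After recovery they were 0.782, 1.28 and 2.83 RPM, with 2 libraries above and 3 below every Rest library and a log2FC of 0.19 (95% interval -0.56 to 0.93). At EPS 0h the sets gave 0.93 (FDR = 0.14) and 1.16 (FDR = 0.0489).

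With *Tug1* KD the values of *Miat* were 0.322, 1.08 and 1.29 RPM at Rest, 1.43, 2.62 and 4.98 RPM at EPS 0h and 0.600, 1.86 and 3.62 RPM at EPS 3h. The groups did not overlap at EPS 0h (log2FC 1.63, SE 0.367, FDR = 0.000463), and 4 of 6 libraries lay above every Rest library at EPS 3h (log2FC 0.99, SE 0.377, FDR = 0.0272). At EPS 3h limma-voom (0.89, FDR = 0.0741), library size alone (FDR = 0.0580) and the fit without a filter (FDR = 0.0846) did not call it. Without Rest *Tug1* KD replicate 3, the library with the lowest *Miat* of its group, the log2FC at EPS 3h was 0.82 (FDR = 0.0718), and within the sets it was 0.81 (FDR = 0.227) and 1.12 (FDR = 0.0608). *Tug1* KD at Rest gave -0.55 (95% interval -1.31 to 0.22), with 4 of 6 libraries below every control library. Of 9 genes flanking *Miat*, 2 were higher at EPS 0h in control myotubes, the transcriptional regulator gene *Mn1* (0.90, FDR = 0.0476) and the lipid transfer protein gene *Pitpnb* (0.24, FDR = 0.0288), and 0 were lower. Among all genes 20.5% were higher and 18.4% lower in this comparison.

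*Pvt1* rose most after recovery. In control myotubes its lowest, median and highest values were 7.63, 9.22 and 13.3 RPM at Rest, 11.5, 12.3 and 16.0 RPM at EPS 0h and 16.8, 27.1 and 36.9 RPM at EPS 3h. After recovery all 6 libraries lay above every Rest library (log2FC 1.50, SE 0.177, FDR = 7.45e-09). At EPS 0h all 6 lay above the Rest mean and 2 above every Rest library, with a log2FC of 0.42 (FDR = 0.0571). It passed with the replicate set (0.42, FDR = 0.0135) or the replicate number (0.43, FDR = 0.00658) as a block.

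With *Tug1* KD the values of *Pvt1* were 9.49, 10.4 and 12.8 RPM at Rest, 12.4, 16.9 and 25.6 RPM at EPS 0h and 21.8, 36.8 and 40.4 RPM at EPS 3h. The log2FC was 0.73 (SE 0.175, FDR = 0.000891), with 5 of 6 libraries above every Rest library, and 1.67 (SE 0.177, FDR = 5.93e-10), without overlap. After recovery the rise passed within both sets, at 1.59 and 1.40 in control and 1.93 and 1.42 in *Tug1* KD myotubes. At EPS 0h with *Tug1* KD replicates 1 to 3 gave 1.12 (FDR = 2.65e-05), whereas replicates 4 to 6 gave 0.30 (FDR = 0.262).

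The difference in *Pvt1* between *Tug1* KD and control was 0.44 directly after EPS (FDR = 0.0843). It passed with the replicate set (0.43, FDR = 0.0226) or the replicate number (0.42, FDR = 0.0129) as a block. It was 0.59 in replicates 1 to 3 (FDR = 0.0286) and 0.26 in replicates 4 to 6 (FDR = 0.372). At Rest and EPS 3h it was 0.13 (FDR = 0.766) and 0.30 (FDR = 0.288).

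The neighbours of *Pvt1* had smaller log2FC values than *Pvt1* in the EPS comparisons, whereas *Cyrib* and, by less, *Asap1* had larger values than *Pvt1* when *Tug1* KD was compared with control. *Myc*, which encodes a growth-promoting transcription factor and lies 26.4 kb away, rose in control myotubes from 120.3 ± 19.4 to 149 ± 15.1 RPM after recovery (SD, n = 6, log2FC 0.31, FDR = 0.0232). *Asap1*, which encodes a GTPase-activating protein, rose by 0.38 (FDR = 0.00145) and 0.40 (FDR = 0.000479) at the successive times. *Cyrib* was higher with *Tug1* KD at Rest (0.52, FDR = 0.00549), EPS 0h (0.60, FDR = 0.00121) and EPS 3h (0.49, FDR = 0.0107). *Asap1* was higher with *Tug1* KD at EPS 0h (0.45, FDR = 0.000744) and EPS 3h (0.31, FDR = 0.0239), but did not pass at Rest (0.24, FDR = 0.101). *Myc* was at -0.30, -0.25 and -0.21 in these 3 comparisons and did not pass.

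Beyond the domains of the members, 16 other imprinted genes were tested. In control myotubes 3 were higher at EPS 0h and 6 at EPS 3h, and 0 were lower at either time (medians 0.22 and 0.16). Over all genes 20.5% and 26.1% were higher and 18.4% and 25.9% lower at these times. *Plagl1*, a zinc finger transcription factor gene, rose from 0.799 ± 0.325 to 4.02 ± 1.39 RPM after recovery (SD, n = 6, log2FC 2.33, FDR = 6.49e-09), and the amino acid transporter gene *Slc38a4* from 0.608 ± 0.102 to 2.52 ± 1.14 RPM (2.04, FDR = 1.85e-06). *Nnat* (1.45, FDR = 0.00124) and *Peg10* (1.14, FDR = 4.76e-06) rose too. With *Tug1* KD at Rest *Peg3*, a paternally expressed zinc finger gene, was the single gene called (0.69, FDR = 0.0321). Among all genes 5.54% were higher and 4.47% lower there.

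Of 16 other named lncRNAs, 3 were higher and 5 lower at EPS 0h, and 7 higher and 3 lower at EPS 3h in control myotubes. After recovery *Dancr* (1.19, FDR = 0.00213) and *Mir17hg* (1.06, FDR = 0.0115) were higher, having been lower directly after EPS (-0.99 and -1.12, FDR = 0.0208 and 0.0156). *Mir22hg* (-1.49, FDR = 4.59e-09) and the nuclear architecture RNA *Firre* (-1.39, FDR = 9.34e-09) were lower. With *Tug1* KD at Rest 1 was higher (*Norad*, 0.35, FDR = 0.0221) and 0 were lower. The shares there were 4.25% and 2.18% of the lncRNAs tested and 5.54% and 4.47% of all genes.

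Whether *Tug1* KD altered the response of the members to EPS was tested by the interaction term. By edgeR, DESeq2 and limma-voom 0 of 6 members were called at either time and 0 had an unadjusted p under 0.05 (lowest by edgeR 0.108 at EPS 0h and 0.135 at EPS 3h). Over all genes edgeR called 0% at EPS 0h and, at EPS 3h, 0.00715% higher and 0% lower. The difference between the responses was 0.54 for *Kcnq1ot1* at EPS 0h (95% interval -0.12 to 1.20), 0.80 for *Miat* at EPS 3h (-0.26 to 1.87), 0.17 for *Pvt1* at EPS 3h (-0.32 to 0.67) and 0.14 for *Neat1* at EPS 0h (-0.49 to 0.77). The larger log2FC of *Kcnq1ot1* and *Miat* with *Tug1* KD was therefore not shown to differ from that with the control LNA.

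The members varied together to different degrees. Across the 36 libraries, which share groups, experiments and depth, *Malat1* and *Neat1* had a Pearson correlation of log2 RPM of 0.09, and of 0.57 after centring within groups. *Kcnq1ot1* and *Tug1* correlated at 0.47 over all libraries and 0.71 within groups, *Kcnq1ot1* and *Pvt1* at 0.65 and 0.63, and *Pvt1* and *Tug1* at 0.54 and 0.57. *H19* correlated with the other genes at -0.28 to 0.16 over all libraries. These values describe the libraries and carry no test.

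The genes most like each member in log2 RPM over the 36 libraries are given in the same way. *H19* was closest to *Tnni1* (Pearson 0.90) and *Myl1* (0.88), which encode contractile proteins of muscle. *Neat1* was closest to *Lrrc45* (0.84) and *Syt8* (0.84), *Malat1* to *Runx2* (0.76) and *Mcc* (0.72), and *Kcnq1ot1* to *Lin28b* (0.91) and *Ankrd12* (0.90). *Miat* was closest to *Psph* (0.80) and *Rad9a* (0.79), *Pvt1* to the lncRNAs *1700108F19Rik* and *Gm50020* (0.97 for both), and *Tug1* to *Ell2* (0.92) and *Atl2* (0.91).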

How the data were processed

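RNA was measured in 36 poly-A libraries of C2C12 myotubes, 6 per group, with groups and replicate numbers taken from the sample titles. The authors trimmed the reads with fastp 0.14.1, aligned them with STAR 2.5 to GRCm39 and deposited whole-number counts per gene without normalization (FastQC 0.11.7 per the labels). The strand setting of the counting is not given in the sources used here, and 1492 rows without a gene name held 0.0327% of the counts. No library was left out, and no pair of libraries within a group agreed within counting error (lowest chi-square per degree of freedom 4.258).

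The members and gene lists were chosen with earlier results of these data known. The 13995 genes that reached 1 RPM in 12 or more libraries were fitted in R 4.3.3 with edgeR 4.0.16 (TMM, robust quasi-likelihood F test, all 6 groups in 1 model, FDR under 0.05). Levels are RPM on the TMM-scaled library size. The study used limma-voom. On simulated data for *Tug1* KD against control at Rest, with 200 of 13995 genes changed by 1 on the log2 scale, 95% were recovered by edgeR (5 false calls), 95% by limma-voom (4) and 97% by DESeq2 (16). The changed genes were drawn above a minimum mean level that *Miat* did not reach. Smaller changes and differences between experiments were not simulated, so the recovery does not cover these. Ratios of neighbouring members were tested by exact permutation (924 permutations, 0.5 counts added, Benjamini-Hochberg over 21 tests). Intervals and floors (3 counts) cover counting error only.

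The alternatives were DESeq2 1.42.0, limma-voom (limma 3.58.1), library size only, no filter, the replicate number or the replicate set as a block, each replicate set alone, an FDR under 0.01, a pseudocount of 0.1 and, chosen after seeing the data, leaving out Rest *Tug1* KD replicate 3 and, for the pooled folds of rare RNAs, each library in turn. Replicate numbers were taken as pairs where every pair correlated above 0.1 after centring within groups. This was so for *Tug1* KD against control at EPS 0h and EPS 3h, both EPS times in control and EPS 0h in *Tug1* KD myotubes, but not for *Tug1* KD at Rest (lowest -0.096) or EPS 3h in *Tug1* KD myotubes (0.072). The centring left the difference between the replicate sets in, and unmatched replicate numbers were not compared. Libraries of the same set can correlate without being pairs, so the check cannot show pairing by replicate number. The genes named are the members, *Tug1*, at most 4 genes per list that passed the threshold with the largest absolute log2FC in the comparison described, and the 2 genes most like each member. One gene named by this rule is not reported here. *Cdkn1c*, *Igf2*, *Dlk1*, *Rtl1*, *Dio3* and other values of genes outside this rule were added after their values were seen. The 10 gene lists hold domain neighbours, other imprinted genes, paraspeckle and speckle proteins and other lncRNAs. Sequences are from RefSeq and exons from GENCODE.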

Additional observations from a re-analysis of the deposited data

Results flagged for a closer look

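The 6 members past the filter and *Tug1* were screened for a library far from the others of its group, in 42 combinations of gene and group, of which about 1 in 20 would stand apart by chance. A single value did. *H19* in Rest control replicate 6 was at 2595 RPM, against 3579 RPM in the next library, a gap of 0.663 of the whole range of the group (limit 0.625). Its cause was not tested. No member differed in its EPS response between control and *Tug1* KD myotubes by the interaction term.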

How the results depend on the processing

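Of the counts of members called and the ratios that passed, 16 values moved by more than 1.5 times or to or from 0. At Rest 1 member (*H19*) was higher with *Tug1* KD under the replicate block (0.31), the replicate set as a block (0.31) or replicates 1 to 3 alone, against 0. At EPS 0h the count higher with *Tug1* KD, 1 as reported, was 0 with limma-voom, no filter, replicates 4 to 6 alone or an FDR under 0.01, and 2 (*Pvt1* added) under either block. For EPS 0h in control myotubes the count higher was 1 with replicates 1 to 3 alone or an FDR under 0.01, against 2, and it was 3 (*Pvt1* added) with DESeq2 or either block. The count lower at EPS 0h was 0 in replicates 4 to 6 alone with either LNA, against 1 (*Neat1*). Without a filter 4 members were higher at EPS 3h in control myotubes, against 2, as *Rian* and *Mirg* entered. Smaller shifts were seen with *Tug1* KD. From 3 members higher at EPS 0h the count became 4 (*Malat1* added) in replicates 1 to 3 and 2 in replicates 4 to 6. At EPS 3h it became 4 (*Malat1* added) with DESeq2 or either block and 2 (*Miat* lost) with library size only, replicates 4 to 6, an FDR under 0.01 or without Rest *Tug1* KD replicate 3. It stayed at 3 with limma-voom and in replicates 1 to 3, with *Malat1* in place of *Miat*, and without a filter, with *Mirg* in place of *Miat*. The 4 ratios that passed became 0 with the replicate block or with permutation within sets, designs whose smallest p values were 0.0312 and 0.005. The replicate numbers did not pair the Rest libraries of *Tug1* KD and control, so the block there says nothing of a stronger or weaker effect.

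Of the single log2FC values, 557 kept direction and side of the threshold, 15 came to pass it, 25 no longer passed and 33 changed sign. None of the last was called as reported. For *Tug1* KD at Rest these were *Malat1* with limma-voom (-0.01) and, in replicates 1 to 3, *Malat1* (-0.49), *Neat1* (-0.15), *Kcnq1ot1* (-0.10) and *Pvt1* (-0.15). For *Tug1* KD at EPS 0h they were *Miat* with limma-voom (-0.07), library size (-0.01) and replicates 4 to 6 (-0.00) and *Malat1* in replicates 4 to 6 (-0.01), and at EPS 3h *Miat* in replicates 1 to 3 (-0.21). For EPS in control myotubes they were *H19* at EPS 3h with library size (-0.09), no filter (-0.01) and replicates 4 to 6 (-0.06) and *Miat* in replicates 4 to 6 (-0.02). With *Tug1* KD they were *Malat1* at EPS 0h in replicates 4 to 6 (-0.15) and *H19* at EPS 3h with DESeq2 (0.00), replicates 4 to 6 (0.05) and without Rest *Tug1* KD replicate 3 (0.03). Of the interactions at EPS 0h they were *Malat1* with limma-voom (0.10), the blocks (0.03 and 0.02) and replicates 1 to 3 (0.69), *Neat1* (-0.06), *Kcnq1ot1* (-0.03) and *Pvt1* (-0.16) in replicates 4 to 6, and *Neat1* without Rest *Tug1* KD replicate 3 (-0.01). At EPS 3h they were *Malat1* (-0.21) and *H19* (0.10) in replicates 4 to 6 and *Neat1* with DESeq2 (0.01), limma-voom (0.03), the blocks (0.05 and 0.01) and replicates 1 to 3 (0.17). The cause of these changes was not tested. Library size alone shifted the median of all genes by -0.17 (EPS 3h, control) and -0.16 (EPS 3h, *Tug1* KD). Depth limits *Meg3*, *Rian*, *Mirg* and *Miat* most.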
